A study of Mus musculus with 19 samples.

Results

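Neuron cluster N7 was a group of 139 GABAergic cells among the 2444 neurons that the authors sorted into 16 clusters, N1 to N16, in a single-cell survey of the mouse medial amygdala. Its members were the cells whose deposited column name ends in N7, and every gene was then read for the same cells in the table of all 20679 cells. N7 held 5.69% of the clustered neurons and ranked 7th of 16 by size. The cells came from male C57BL/6J mice on a reverse light cycle and were measured with Drop-seq, a droplet method that counts unique molecular identifiers (UMIs), after Act-Seq, a dissociation protocol designed to limit transcription during preparation.

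The libraries came from 4 groups, and the labels are silent on whether each library is its own animal; the p-values therefore measure the spread between libraries, which may be technical. Seizure-affected mice gave 2 libraries with 34 N7 cells, at 9 weeks of age in seizure 1 and 8 weeks in seizure 2. Mice stressed acutely by immobilization gave 4 libraries with 33 N7 cells, at 9 weeks in immobilization 2 and 3 and at 8 weeks in 1 and 4. Odor-exposed mice gave 4 libraries with 34 N7 cells, at 9 weeks in odor 1 and 2 and at 8 weeks in 3 and 4, and the labels say that immediate early genes were left out when these cells were clustered. Naive control mice, all of 8 weeks, gave 6 libraries with 38 N7 cells. A saline Act-Seq library and a pair of conventionally dissociated libraries, from seizure-affected and saline-injected mice of 8 weeks, have no cells in the neuron clusters.

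The medial amygdala receives input from the main and accessory olfactory systems and takes part in social, reproductive and defensive behaviour. Much of its output is inhibitory. GABAergic neurons make GABA from glutamate with the glutamate decarboxylases Gad1 and Gad2 and load it into vesicles with the transporter Slc32a1, and many medial amygdala neurons also carry sex steroid receptors and neuropeptides.

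N7 cells were found in 13 of the 16 libraries, with 11 libraries holding at least 5 of them. Those 11 held 6 to 28 N7 cells and 9521 to 82398 N7 UMIs each, and the values per library below are from them. The median N7 cell had 2075 UMIs and 1198 genes, against 2192 UMIs and 1254 genes in the 2305 other neurons. The deepest N7 cell, in seizure 1, had 13807 UMIs. In the table of all cells, 136 of the 139 were labelled as neurons, 2 as astrocytes and 1 as an oligodendrocyte precursor, with 1 of these 3 in seizure 1 and 2 in naive 3. No N7 barcode occurred in a second library.

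Each of the 139 N7 cells had at least 1 UMI of Gad1, Gad2 or Slc32a1. Gad2 was seen in 104 cells, Slc32a1 in 57 and Gad1 in 51. All 3 were seen together in 13 cells, and at least 2 of them in 60. The same 100% held in clusters N3, N4, N5, N6 and N8, against 80.2% in N1 and 96.7% in N2, and the share was between 15.8% in N14 and 46.6% in N12 in the remaining clusters. No source used here says whether cells were selected on these transcripts before clustering. The 100% may therefore be a rule of selection, which was not tested. The 7 other clusters in which over 50% of cells had a Gad2 UMI, N1 to N6 and N8, are called the other GABA clusters here and hold 813 cells.

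Levels below are in CPM, the UMIs of a gene per 1000000 UMIs summed over all cells of a cluster, and log2 ratios are of CPM + 10. Because the cells were clustered on their genes, levels of N7 against other clusters are a description and carry no test. Gad2 stood at 537.8 CPM in N7, against 197.9 CPM in all other neurons and 470.0 CPM in the other GABA clusters. Over the 11 libraries, Gad2 ran from 377.9 CPM through a median of 533.6 to 974.6 CPM in N7, and from 133.3 through 199.5 to 403.9 CPM in other neurons. N7 was the higher of the pair in 11 of 11 libraries, although the ranges overlapped because of naive 4, whose other neurons had the 403.9 CPM. Among the 16 clusters N7 ranked 4th for Gad2, behind N6, N4 and N5. Gad1 was at 193.8 CPM in N7, 84.7 CPM in other neurons and 156.1 CPM in the other GABA clusters, and Slc32a1 at 215.7, 98.9 and 173.4 CPM. With every cell thinned to 1000 UMIs, 43.2% of N7 cells kept a Gad2 UMI (74.8% unthinned), against 44.2% in N8, 46.0% in N5 and 2.72% of astrocytes. Astrocytes, which should lack the gene, had a median of 1341 UMIs before thinning, and 1614 of them were too shallow to be thinned.

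Glutamatergic genes were sparse. Slc17a6 and Slc17a7, which load glutamate into vesicles, were seen in 14 and 6 N7 cells, 18 cells in all. Like every N7 cell, each of the 18 also had a GABA transcript. Slc17a6 was at 43.7 CPM in N7 and 87.9 CPM in other neurons, and Slc17a7 at 16.4 and 31.7 CPM.

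**Figure D1:**
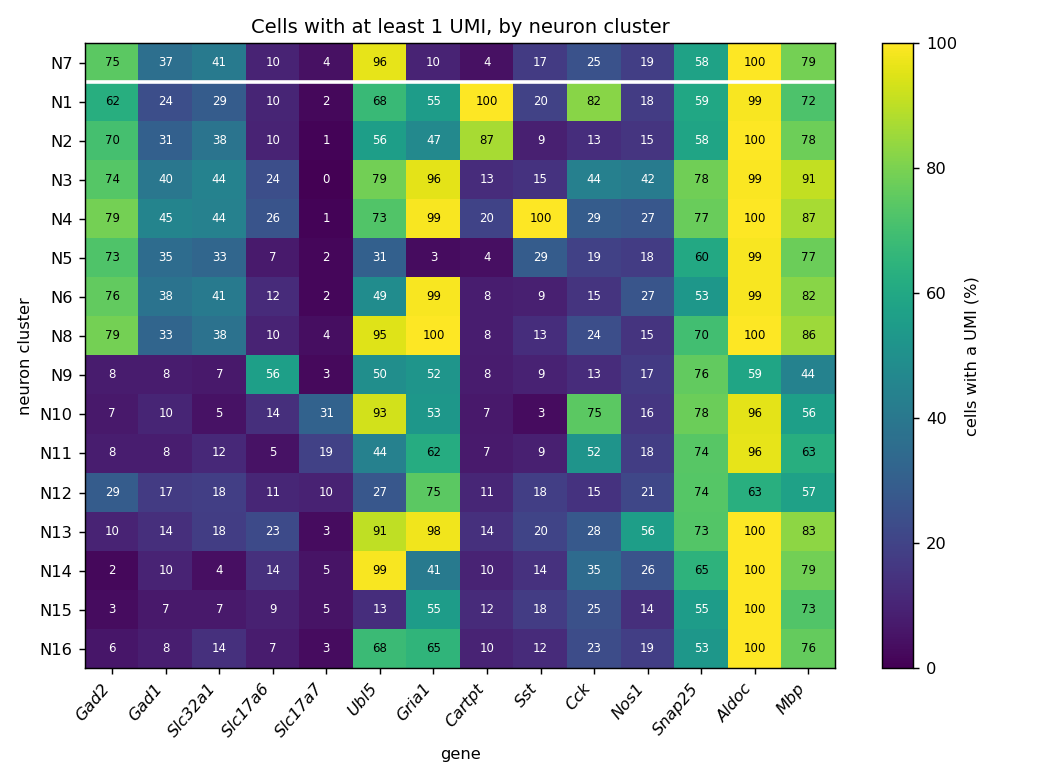
Percent of cells with at least 1 UMI of each gene (columns) in each neuron cluster (rows), N7 in the top row. Gad2 was found in 75% of N7 cells, Ubl5 in 96% and Gria1 in 10%. N5, N6 and N8 are near N7 in Gad2. Ubl5 is lower in N5 (31%) and N6, and Gria1 is higher in N6 (99%) and N8 (100%).

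The widest gaps in the share of cells between N7 and the other GABA clusters were those of Gria1, which was nearly absent from N7, and Ubl5, which was found in nearly every N7 cell. Ubl5 encodes a small ubiquitin-like protein that takes part in pre-mRNA splicing, and lies on chromosome 9, 20642878 to 20647140. Gria1 encodes a subunit of AMPA-type glutamate receptors and lies on chromosome 11, 57011387 to 57330244. Both positions are from the GENCODE M21 annotation of mm10.

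Ubl5 was seen in 134 of 139 N7 cells, 61 of them with 1 UMI, and its level of 789.0 CPM was the highest of the 16 clusters, against 484.0 CPM in other neurons and 495.3 CPM in the other GABA clusters. Per library it ran from 525.2 through 750.1 to 907.0 CPM in N7 and from 427.8 through 489.0 to 546.0 CPM in other neurons. It was higher in N7 in 10 of 11 libraries, the exception being naive 2 with 525.2 CPM in N7 and 528.0 CPM in other neurons. The step in level was modest, with a log2 ratio of 0.69, while the share of cells was 96.4% in N7 and 63.2% in other neurons. Thinned to 1000 UMIs, 62.6% of N7 cells kept a Ubl5 UMI, against 55.8% of N8, 11.3% of N5 and 17.5% of astrocytes.

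Gria1 was seen in 14 N7 cells, 13 of them with 1 UMI. Its level was 43.7 CPM in N7, 553.4 CPM in other neurons and 561.9 CPM in the other GABA clusters, a log2 ratio to other neurons of -3.39. Per library it ran from 0 through 24.7 to 97.1 CPM in N7 and from 496.1 through 528.0 to 625.3 CPM in other neurons, and these ranges did not overlap. Only N5, at 13.9 CPM, was lower. Thinned, 3.60% of N7 cells kept a Gria1 UMI, against 66.7% in N8, 62.8% in N6, 0.806% in N5, 34.6% of astrocytes and 4.05% of oligodendrocytes. The level in N7 was near that of oligodendrocytes (51.8 CPM) and below that of astrocytes (492.5 CPM).

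N5, N6 and N8, GABA clusters of 124, 113 and 138 cells, held other combinations of both genes. In N7, 86.3% of cells had Ubl5 without Gria1, 10.1% had both, 3.60% had neither and 0% had Gria1 without Ubl5. In N8, 94.9% had both. N6 had no cell with Ubl5 alone, and its cells were split between Gria1 alone (50.4%) and both (48.7%). In N5, 67.7% of cells had neither gene. The combination also occurred outside the GABA clusters, since 57.6% of N14 cells had Ubl5 without Gria1 while 15.8% of them had a GABA transcript.

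**Figure D2:**
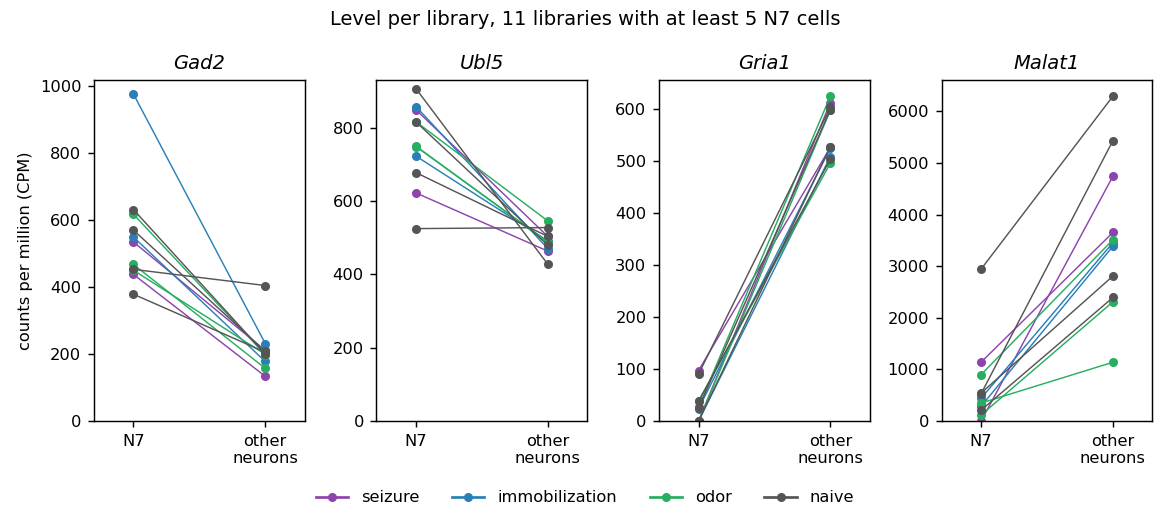
Level of Gad2, Ubl5, Gria1 and Malat1 (CPM) in N7 (left) and in the other neurons (right) of each of the 11 libraries with at least 5 N7 cells, a line joining the values of a library. Gad2 lines fall to the right in 11 of 11 libraries, and Gria1 and Malat1 lines climb in 11 of 11; Ubl5 is higher in N7 in 10.

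The 30 leading genes, those with the largest log2 ratio among genes found in at least 15% of N7 cells, were mostly small steps. Only Gad2 (1.40), Sytl4 (1.24), Gad1 (1.11) and Slc32a1 (1.05) passed a log2 ratio of 1, and the last of the 30 stood at 0.66. Sytl4, a Rab-binding protein of secretory granule exocytosis, was at 109.2 CPM in N7 and 40.5 CPM in other neurons. N7 had the highest level of the 16 clusters for 23 of the 30, and 19 were higher in N7 in at least 8 of 11 libraries. With levels averaged over libraries in place of summed over cells, 17 of the 30 stayed on the list.

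Slc30a9, of the zinc transporter family, was at 294.8 CPM in N7 and 164.2 CPM in other neurons. Per library it ran from 105.0 through 294.7 to 497.2 CPM in N7 and from 137.9 through 162.5 to 188.0 CPM in other neurons, with N7 higher in 10 of 11. Cacng4, an auxiliary subunit of AMPA receptors, was at 188.4 CPM in N7 and 110.0 CPM in other neurons and was higher in N7 in 11 of 11 libraries. Sez6 (756.2 against 462.5 CPM), Vps8 (480.5 against 293.3 CPM) and Lrrc17 (379.5 against 233.1 CPM) were also on the list, but each was higher in 6 of 11 libraries only. In these 3 genes, 72, 45 and 45 UMIs came from 1 cell, the deepest of the cluster, and without it the N7 levels were 581.6, 371.6 and 266.7 CPM.

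Of the 10 genes with the lowest ratio, 8 were also lower in N7 than in the other GABA clusters, with log2 ratios from -3.41 for Gria1 and -3.32 for Cartpt to -0.57 for Nrn1. Cartpt, the CART peptide precursor, was at 16.4 CPM in N7, the lowest of the 16 clusters, with 6 UMIs in all; N1 and N2, at 1551 and 616.4 CPM, hold most of it. The noncoding RNAs Snhg11 (81.9 CPM in N7, 1018 CPM in other neurons) and Meg3 (281.2 and 3019 CPM) had low ratios to the other neurons, which include N9 and N12. Those clusters held 8881 and 14788 CPM of Snhg11 and 10547 and 61706 CPM of Meg3. Against the other GABA clusters the log2 ratios were 0.06 for Snhg11 and 0.01 for Meg3.

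Malat1, a long nuclear noncoding RNA on chromosome 19, 5795690 to 5802672, was lowest in N7 of all 16 clusters. It was at 859.9 CPM in N7, against 3864 CPM in other neurons and 2317 CPM in the other GABA clusters; astrocytes had 23089 CPM. Per library it ran from 0 through 440.1 to 2944 CPM in N7 and from 1139 through 3457 to 6295 CPM in other neurons, and N7 was lower in 11 of 11 libraries although the ranges overlapped. The 3 N7 cells labelled as glia held 157 of the 315 Malat1 UMIs, and without them the N7 level was 448.5 CPM. N5 and N11, at 890.1 and 886.3 CPM, lay close to N7.

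For lists of related genes, members at 20 CPM or more over all clustered neurons pooled were counted as higher or lower past 1.5-fold, a ratio of CPM + 10. A gene that is high in N7 alone can fall under this cut. Of all 7095 such genes, 143 (2.02%) were higher and 662 (9.33%) lower in N7 than in other neurons, and against the other GABA clusters 191 (2.69%) were higher and 506 (7.13%) lower. Of 5 GABA transmitter genes, 3 were higher, namely Gad1, Gad2 and Slc32a1, while the GABA-degrading Abat (559.6 against 516.7 CPM) was within 1.5-fold. Of the 3 glutamate transmitter genes at that level, 3 were lower than in other neurons, which include glutamatergic cells. Against the other GABA clusters 1 was higher and 1 lower.

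Of 10 neuropeptide genes at 20 CPM or more, 0 were higher and 8 lower in N7 than in the other neurons pooled. Against the other GABA clusters pooled, 6 were lower. Somatostatin (Sst) was at 106.5 CPM in N7 and 193.2 CPM in other neurons, and was seen in 24 N7 cells. Over libraries it ran from 0 through 90.4 to 415.7 CPM in N7 and from 97.1 through 159.5 to 487.9 CPM in other neurons. These ranges overlapped, while 7 of the 11 N7 values lay below the lowest value of the other neurons. Cholecystokinin (Cck) was at 131.0 against 208.3 CPM and in 35 cells, Tac1 at 46.4 against 81.8 CPM and in 11, and Npy at 27.3 against 60.2 CPM and in 8. The opioid-related Penk (24.6 against 37.7 CPM) and Pnoc (27.3 against 22.3 CPM) were within 1.5-fold on the scale of CPM + 10. Vasopressin (Avp) had 6 UMIs in N7 and 1172 CPM in other neurons, where N9 carried it at 25584 CPM. No UMI of any of the 28 measured peptide genes was found in 59 N7 cells, or 42.4%, against 29.5% of other neurons; this share was not thinned to a common depth.

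The machinery of secretory granules was within 1.5-fold for 10 of 10 genes. Carboxypeptidase E (Cpe), which trims peptide precursors, was at 10128 CPM in N7 and 8156 CPM in other neurons, and was higher in N7 in 11 of 11 libraries. It ran from 8539 through 10052 to 11915 CPM in N7 and from 7197 through 7935 to 9633 CPM in other neurons. Chromogranin A (Chga) was at 101.0 CPM in N7, 69.3 CPM in other neurons and 10.4 CPM in N5. Scg2, another granin, was at 292.1 CPM in N7 and 96.3 CPM in N6. Over the libraries it ran from 74.2 to 533.6 CPM in N7 and from 235.2 to 848.5 CPM in other neurons, and these ranges overlapped.

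Of 5 steroid and thyroid hormone receptor genes, the mineralocorticoid receptor Nr3c2 was lower in N7. The estrogen receptor Esr1 was seen in 4 N7 cells. The glucocorticoid receptor Nr3c1, at 158.3 CPM in N7 and 159.7 CPM in other neurons, was within 1.5-fold. Among 5 peptide and hormone receptors, the prolactin receptor Prlr was higher (60.1 against 24.6 CPM, 22 UMIs, higher in 7 of 11 libraries) and the thyrotropin-releasing hormone receptor Trhr lower (8.19 against 26.4 CPM, 3 UMIs).

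Of 14 ionotropic and metabotropic glutamate receptor genes, 0 were higher and 5 lower, namely Gria1, Grin2b, Grin2c, Grik2 and Grid1. The AMPA subunits Gria2 (404.0 CPM in N7, 503.1 CPM in other neurons), Gria3 (76.4 and 101.0 CPM) and Gria4 (32.8 and 35.2 CPM) were within 1.5-fold, so that the low level among AMPA subunits was that of Gria1. The NMDA subunit Grin2b was at 49.1 and 102.8 CPM and was lower in N7 in 10 of 11 libraries. The kainate subunit Grik3, chosen after its values were seen and not among the 14, was at 49.1 CPM in N7 from 18 UMIs, against 9.96 CPM in other neurons, but was higher in 6 of 11 libraries and at 0 in 5. Of 13 GABA and glycine receptor genes, 2 were lower, among them the glycine receptor subunit Glrb, and 11 within 1.5-fold, with the GABA-B subunit Gabbr1 at 428.6 CPM in N7 and 395.1 CPM in other neurons.

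Developmental transcription factors showed 4 of 33 higher, Dlx1, Tshz1, Tshz2 and Bcl11a, and 2 lower, Bcl11b and Otp. Tshz2 was at 374.0 CPM in N7, the highest of the clusters, against 243.8 CPM in other neurons, and Tshz1 at 103.7 against 64.6 CPM. Dlx1, a factor of GABAergic neurons of the ventral forebrain, was at 62.8 against 32.3 CPM but was higher in 5 of 11 libraries. Of 33 ion channel genes 0 were higher and 7 lower, among them the potassium channel Kcnt1 (8.19 against 33.1 CPM). Of 38 adhesion and guidance genes, Cntnap2 was higher (71.0 against 41.5 CPM) and 3 were lower. Of 9 interneuron markers 6 were lower, including Lamp5 and Ndnf with 1 and 2 UMIs, and Calb1, Calb2 and nitric oxide synthase Nos1 (95.6 against 128.3 CPM) were within 1.5-fold. Of 7 long noncoding RNAs 5 were lower, Miat and Neat1 beside those above, and against the other GABA clusters 2 were. Of 7 immediate early factors Junb was lower and 0 were higher. Synaptic release genes had 6 of 27 lower, such as the presynaptic scaffold Bsn (13.7 against 45.0 CPM), and 0 higher.

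General neuronal genes and astrocyte genes were found in the same cells. Of 16 neuronal genes 14 were within 1.5-fold of the other neurons, the exceptions being Meg3 and Snhg11. Snap25, of the synaptic fusion machinery, was at 434.1 CPM in N7, 565.5 CPM in other neurons and 73.7 CPM in astrocytes. The astrocyte aldolase Aldoc was found in 100% of N7 cells at 5351 CPM, and in the astrocytes themselves at 5268 CPM. The glutamate transporter Slc1a2 was at 5321 CPM in N7 and 6029 CPM in astrocytes, whereas the gap junction gene Gja1 was at 870.9 and 4307 CPM and angiotensinogen (Agt) at 597.9 and 3495 CPM. The 11 astrocyte genes summed to between 17081 and 22897 CPM over the N7 libraries and to between 15963 and 20453 CPM over other neurons, and 11 of 11 were within 1.5-fold. Within N7 the astrocyte sum ran from 18835 to 19922 CPM in seizure, 19429 to 20167 CPM in immobilization, 18202 to 19422 CPM in odor and 17081 to 22897 CPM in naive libraries.

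**Figure D3:**
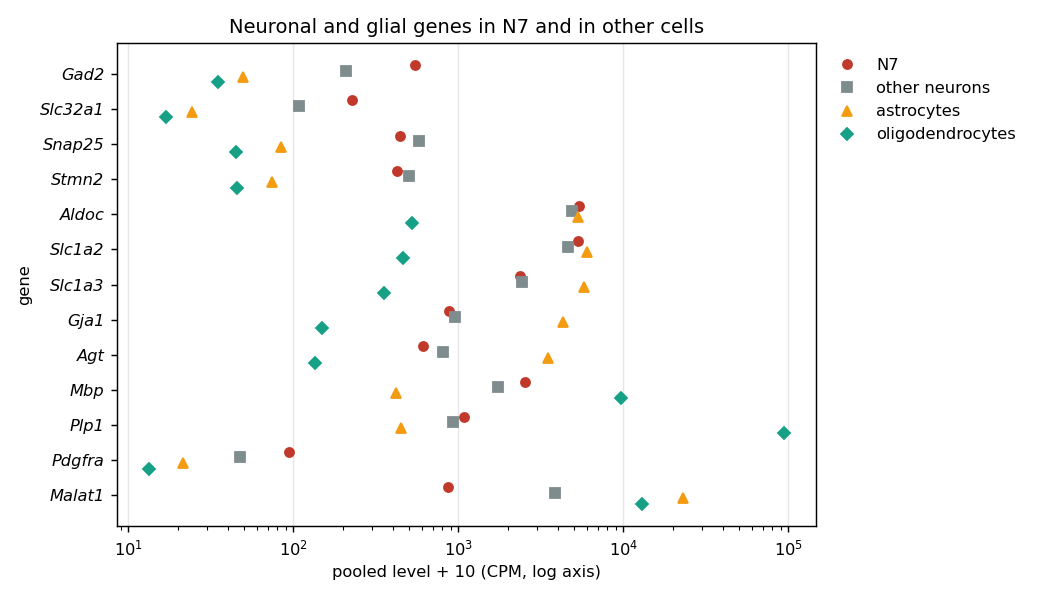
Pooled level + 10 (CPM, log axis) of neuronal and glial genes in N7, in the other neurons, in astrocytes and in oligodendrocytes. N7 (circles) lies beside the other neurons (squares) for most genes, and near the astrocytes (triangles) for Aldoc and Slc1a2, but below them for Gja1 and Agt.

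Of 8 oligodendrocyte genes at 20 CPM or more, Mobp was higher (728.9 against 438.2 CPM, in 7 of 11 libraries) and Mag and Cldn11 lower, and the list of 10 summed to between 889.4 and 7394 CPM in N7 and 2546 and 4868 CPM in other neurons. Myelin basic protein (Mbp) was found in 79.1% of N7 cells at 2514 CPM, against 9654 CPM in oligodendrocytes. The precursor marker Pdgfra was at 84.6 CPM in N7 and 37.3 CPM in other neurons, but 13 of its 31 UMIs lay in 1 cell, and without the 3 cells labelled as glia it was at 51.1 CPM. Of 8 microglial genes 8 were within 1.5-fold. The endothelial genes Cldn5 and Flt1 and 3 of 7 mural genes had 0 UMIs in N7. The share of this glial RNA that came from other cells was not tested.

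Over 3835 genes at 50 CPM or more, the profile of N7 was most like N3 (Pearson r of log2 levels 0.957), then N16 and N8 (0.955 each), and least like N12 (0.538). These correlations are across genes of pooled cells that share libraries and depth, and are a description. Against N8, 21 genes were over 2-fold higher in N7 and 19 over 2-fold lower, the lowest being Gria1 (43.7 against 814.7 CPM) and Malat1 (859.9 against 2769 CPM). Against N5, Chga and Ubl5 (789.0 against 163.4 CPM) led, and Npy and Sst (106.5 against 260.8 CPM) were lower in N7. Against N3, Gria1 (43.7 against 664.5 CPM) and Malat1 (859.9 against 2991 CPM) were lower in N7, while Sst (106.5 against 40.0 CPM) was higher.

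The libraries outside the clustering were searched for the 10 leading genes of N7. These were picked for a high ratio in the N7 cells themselves, so a higher share in N7 than in other neurons follows from the choice. They include Gad2, Gad1 and Slc32a1, so cells of the other GABA clusters can score as well. UMIs of at least 3 of the 10 leading genes were found in 59.0% of N7 cells and 22.9% of other neurons. Among all cells, the same held for 6.25% of 1281 in the conventional seizure library and 10.2% of 1880 in the conventional saline library (exact 95% binomial intervals 4.98 to 7.71% and 8.83 to 11.6%, for counting error only). In the Act-Seq saline library it was 8.11% of 2010. Of cells with a GABA transcript and at least 1000 UMIs, 12.6% in the conventional seizure library, 13.6% in the conventional saline library and 20.7% in the Act-Seq saline library had Ubl5 without Gria1, against 16.7 to 24.8% in the 11 libraries above. Cells with no GABA transcript had the combination in 24.7, 22.3 and 24.5% of cases in these 3 libraries, in the same order. Each was above the share among cells with a GABA transcript, and this difference was not tested. Gria1 was seen in 21.2, 24.5 and 34.9% of the cells with no GABA transcript, against 60, 62.1 and 61.5% of those with one. In the 11 libraries above, Ubl5 was seen in 53.2 to 66.1% of cells with a GABA transcript. In these 3 libraries it was seen in 34.2, 44.0 and 65.0% of such cells, and in 31.4, 32.2 and 39.2% of the cells with none. The cells with none were also shallower, with medians of 1806, 1577.5 and 1731 UMIs against 2159.5, 2144 and 2210.

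N7 made up 5.09 to 6.32% of the neurons on average in the 4 groups, and no difference from naive mice passed the test. In the 12 libraries with at least 20 neurons, the share was 6.00 ± 2.42% in seizure (SD, n = 2), 5.09 ± 1.17% in immobilization (n = 3), 6.32 ± 1.39% in odor (n = 3) and 5.53 ± 1.97% in naive libraries (n = 4). The values were 7.71 and 4.29% in seizure, 4.58, 6.43 and 4.26% in immobilization, 4.81, 6.61 and 7.55% in odor, and 4.08, 4.55, 5.07 and 8.42% in naive libraries. The differences from naive were 0.47, -0.44 and 0.79 percentage points. Each group overlapped the naive range, which naive 4 widened. In exact two-sided permutation tests the p-values were 0.933, 0.83 and 0.6, or 0.933 each after Benjamini-Hochberg adjustment over 3 comparisons, where the smallest p the design allows is 0.0667 for seizure and 0.0286 for immobilization and odor. Without seizure 1, or with 8-week libraries only, the seizure difference was -1.24 percentage points in place of 0.47.

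**Figure D4:**
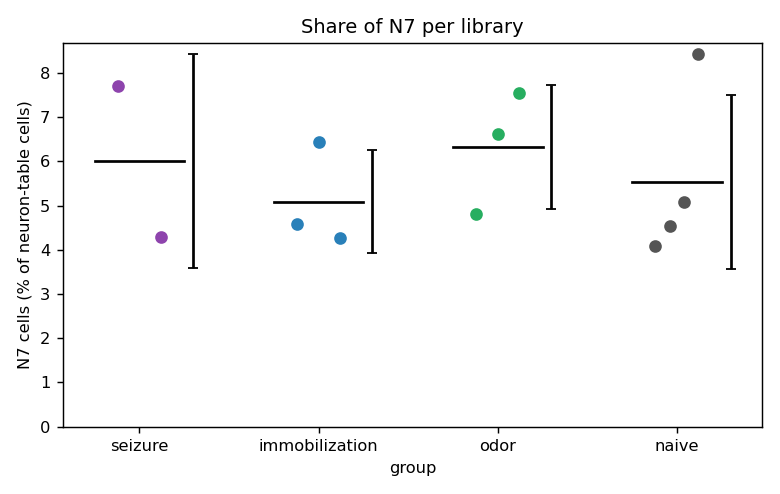
N7 cells as a percent of the neurons of each library, by group. Points are libraries, horizontal lines are means and bars beside them are ± 1 SD; the means lie between 5.09 and 6.32% and all groups overlap the naive libraries.

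Immediate early genes, which are switched on within minutes of neuronal activity, were sparse in N7 when taken singly. Fos was seen in 11 of the 139 cells and Egr1 in 27, while at least 1 of 19 such factors was seen in 33.3 to 100% of the N7 cells of a library and in 44.8 to 82.1% of its other neurons. Fos had 7 and 3 UMIs in the N7 cells of seizure 1 and 2, 3 and 0 in immobilization 1 and 2, 0, 1 and 1 in odor 1 to 3, and 0 in each of naive 1 to 4. Over the group, seizure stood at 106.8 CPM, while naive had 0 of 98533 UMIs, which allows a level of up to 30.4 CPM. The seizure level was 3.51-fold that floor, from 10 UMIs in 7 cells. Only the naive side is bounded here, and the counting error of the 10 seizure UMIs is not included, so 3.51 is no lower limit. This ratio was 2.07-fold without naive 3, 2.57-fold without naive 1 and 2.79-fold without seizure 2. Without seizure 1 it rests on 3 UMIs and is not given. In the other neurons Fos was at 135.4 and 162.6 CPM in seizure, 29.5 and 17.1 CPM in immobilization, 8.79, 17.8 and 24.3 CPM in odor, and 7.85, 2.93, 4.02 and 9.08 CPM in naive libraries, with seizure above and apart from naive. Egr1 had 10 N7 UMIs in seizure, 9 in immobilization, 5 in odor and 8 in naive libraries, 6 of the 8 from naive 1. Junb, Nr4a1 and Arc had 3 UMIs each in seizure, and 1, 3 and 2 in naive libraries.

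The 19 measured immediate early factors were therefore summed, to 195 UMIs in N7. Their level in N7 was 594.7 and 1690 CPM in seizure, 440.1 and 452.9 CPM in immobilization, 561.8, 466.7 and 428.6 CPM in odor, and 1058, 315.1, 371.1 and 226.0 CPM in naive libraries. Seizure 2 and naive 1 were the high libraries, and the groups overlapped. The difference of means of log2(CPM + 10) from naive was 1.27 for seizure, 0.12 for immobilization and 0.23 for odor. None passed the exact two-sided permutation test, with adjusted p-values of 0.8, 0.867 and 0.867 and smallest possible p-values of 0.0667, 0.0667 and 0.0286. In other neurons seizure libraries were at 1007 and 1122 CPM and naive libraries at 378.0, 460.5, 420.9 and 340.3 CPM, a difference of 1.40 that did not overlap and reached the smallest p the exact permutation test allows, 0.0667 (adjusted 0.2). The difference between N7 and other neurons changed by -0.13, 0.04 and 0.26 against naive in seizure, immobilization and odor, with adjusted p = 1 in each exact permutation test. Single libraries moved these values. The seizure difference in N7, 1.27 with all libraries, was 2.02 without seizure 1, 0.52 without seizure 2 and 1.72 without naive 1. The seizure value of N7 against other neurons, -0.13 with all libraries, was 0.54 without seizure 1, -0.80 without seizure 2 and 0.34 without naive 1.

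**Figure D5:**
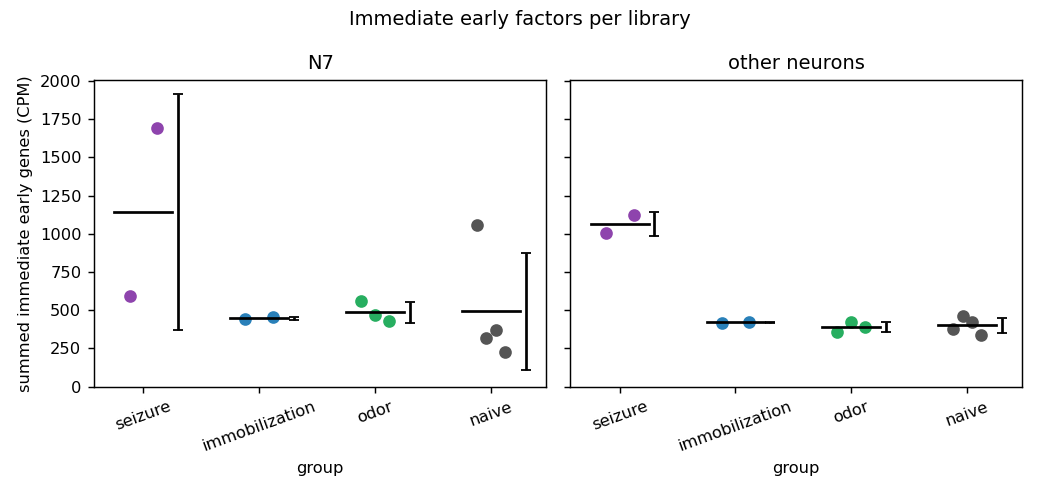
Summed level of 19 immediate early factors (CPM) in N7 (left panel) and in the other neurons (right panel), per library and by group, with means (lines) and ± 1 SD (bars). In N7 seizure 2 reached 1690 CPM and naive 1 reached 1058 CPM; in other neurons both seizure libraries lie above 1000 CPM and all naive libraries below 500 CPM.

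Gene by gene, no change in N7 passed edgeR's quasi-likelihood test at an adjusted p of 0.05 in any group. The fit held 691 genes over 2 seizure, 2 immobilization, 3 odor and 4 naive libraries, and called 0 (0%) in each comparison; 18, 29 and 21 genes had an unadjusted p under 0.05 in seizure, immobilization and odor, and DESeq2 also called 0, with 7, 8 and 9. The lowest p-values in seizure were those of Sez6, Vps8 and Lrrc17. Sez6 had a log2 fold change of 1.90 ± 0.51 (SE) and an adjusted p of 0.116 by edgeR, with 1820 and 0 CPM in seizure and 377.9, 105.0, 395.8 and 226.0 CPM in naive libraries. Seizure 1 alone was high, and it holds the cell with 72 Sez6 UMIs, without which it was at 1137 CPM. In immobilization Unc13c, a synaptic vesicle priming factor, had the lowest p (log2 fold change 1.12 ± 0.38, edgeR adjusted p 0.908), and in odor the metallothionein Mt1 (0.56 ± 0.16, edgeR adjusted p 0.223). Fos, Egr1, Junb, Nr4a1 and Arc were too low in N7 to enter this fit.

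Whether a group's change differed between N7 and the other neurons was tested over 6041 genes as an interaction in edgeR. It called 0 genes in seizure and immobilization (180 and 223 at an unadjusted p under 0.05) and 2 in odor (0.0331%), both higher, Meg3 and Avp; this fit was not run in DESeq2. Meg3 changed by 3.79 ± 0.45 more in N7 than in other neurons (edgeR adjusted p 2.84e-13). N7 was at 1161, 155.6 and 321.5 CPM in odor and 189.0, 210.1, 296.9 and 180.8 CPM in naive libraries, with 28 of the 31 UMIs of odor 1 in 1 cell. The other neurons were at 902.4, 942.2 and 175.4 CPM in odor and 9090, 2517, 1425 and 3008 CPM in naive libraries. The number of N12 cells, which carry most Meg3, was 6, 6 and 1 in the odor libraries and 30, 2, 9 and 3 in the naive ones. Without N9 and N12 the other neurons were at 361.0, 134.7 and 69.4 CPM in odor and 451.7, 62.2, 301.5 and 859.5 CPM in naive libraries. Avp (11.06 ± 1.61, edgeR adjusted p 1.99e-08) rested on 4 N7 UMIs in 2 cells of odor 1 and on the other neurons of naive 2 and 4, at 3062 and 27984 CPM, and without odor 1 it was not called (3.81, edgeR adjusted p 1). Fos, Egr1, Junb, Nr4a1 and Arc had an adjusted p of 1 in each comparison of this edgeR fit.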

How the data were processed

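The 3 tables of UMI counts per gene and cell were used as the authors deposited them. Reads were processed with bcl2fastq 2.17.1.14 and STAR 2.5.0a against mm10, per the submitters' processing notes; no source used here gives the counting tool, cell filters, clustering settings or doublet handling. N7 cells were read from the column names of the neuron table (3343 genes) and their counts from the table of all cells (16233 genes). No further cell was removed and no doublet caller was run.

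The members and gene lists were chosen with earlier results of these data known. Named genes were the 30 with the largest log2 ratio of CPM + 10, N7 over other neurons, among genes found in at least 15% of N7 cells; the 10 with the lowest ratio among genes found in at least 15% of other neurons; genes called between groups; Fos, Egr1, Junb, Nr4a1 and Arc; and list members with a high level or an extreme ratio. Genes of lowest p, and genes compared between N7 and the closest clusters, were added after their values were seen. Lists with no count given above (amines and nitric oxide, amine, acetylcholine and cannabinoid receptors, striatal, pallial, activity effector and glucocorticoid-responsive genes) had 0 to 3 members past 1.5-fold. Some list members are not reported here.

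Counts were summed per library over N7 cells (at least 5) and over other neurons, and tested with edgeR 4.0.16 in R 4.3.3 (TMM factors, filterByExpr, glmQLFit and glmQLFTest, groups sharing 1 estimate of the spread, Benjamini-Hochberg over all genes tested); DESeq2 1.42.0 was an alternative. Shares and sums were compared with exact permutation tests over libraries. The scripts were checked on simulated counts. Precision is limited by the 9521 to 82398 N7 UMIs per library. Intervals and the floor of 3 counts cover counting error only.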

Additional observations from a re-analysis of the deposited data

Results flagged for a closer look

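Of 28 results checked in the 4 naive libraries, 3 had a library far from the others, where chance alone would set apart about 1 in 20. Malat1 was at 2944 CPM in naive 3, against 529.1, 210.1 and 542.3 CPM in naive 1, 2 and 4. Naive 3 holds 2 of the 3 N7 cells labelled as glia, and 685.3 CPM remained without them. Vps8 was at 420.5 CPM in naive 3, from 17 UMIs with at most 5 in a cell, against 189.0, 210.1 and 180.8 CPM in naive 1, 2 and 4. Cartpt was at 45.2 CPM in naive 4, which is 1 UMI, with 0 in the other naive libraries.

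The odor change differed between N7 and other neurons for Meg3, with a log2 interaction of 3.79, and for Avp, with 11.06, in edgeR's test. The Avp value comes from 4 UMIs in N7 and depends on odor 1, as given above. With the other neurons taken without N12 to N16, edgeR's interaction was 2.79 for Meg3 (adjusted p 2.07e-07) and 11.22 for Avp (adjusted p 1.77e-08). Cd200 was called there as well (8.53, adjusted p 0.0183). N9 stayed in that run, and the part that the makeup of the other neurons had was not tested further.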

How the results depend on the processing

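Shares and immediate early sums passed no test under any alternative run. In several of these designs no p could reach 0.05, such as seizure, the paired ones and the immediate early sums after adjustment. The lack of a pass therefore says nothing about stability. With 8-week libraries only, the seizure share difference was -1.24 percentage points. Leaving out a library in turn moved the share differences over -1.24 to 2.18 (seizure), -1.11 to 0.52 (immobilization) and 0.18 to 1.76 (odor), the early-gene differences over 0.52 to 2.02, -0.16 to 0.57 and -0.049 to 0.68 on the log2 scale, and the difference between N7 and other neurons over -0.80 to 0.54, -0.17 to 0.51 and 0.05 to 0.73, in the same order of groups. The signs turned without seizure 1, naive 1, naive 2, naive 3 or naive 4, depending on the result; the cause was not tested.

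Gene counts were small throughout. With no filter on low counts 1 gene was called in seizure (Sez6). With at least 10 N7 cells per library, 1 was called in immobilization and 1 in odor, where Malat1 was lower than in naive libraries in both. The naive libraries there were naive 1 and 3. Seizure 1 was then the lone seizure library, with log2 fold changes of 2.18 for Sez6 and 1.88 for Vps8. With age as a covariate 1 was called in odor (Fabp7). Leaving out a library in turn gave 0 to 4 calls in seizure, 0 in immobilization and 0 to 1 in odor, and 0 to 2, 0 and 1 to 3 for the interaction. The 4 seizure calls came without seizure 2 (Sez6, Vps8, Lrrc17 and Mrps7), with seizure 1 as the lone library, assumed to vary like the other groups. Sez6 alone was called in seizure without immobilization 1, immobilization 2, odor 2 or naive 3, and Mt1 in odor without naive 2. In the interaction, the seizure calls came only with a lone seizure library. Their log2 values were -11.0 for Malat1 and -3.34 for Mbp without seizure 1, and 2.45 for Sez6 without seizure 2. Odor gained Snhg11 without seizure 1, odor 2 or odor 3 and kept Meg3 alone without odor 1. Of the 30 leading genes, 17 stayed with a mean over libraries, and without N9 and N12 the Snhg11 ratio was 0.066.

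The 13 correlations between the deviations of same-numbered libraries ran from -0.02 to 0.09 (median 0.048), against -0.10 to 0.07 (median -0.0087) for 31 other pairs. Deviations were taken from group means, so in a group of 2 libraries they mirror each other. The sets of pairs are thus not independent, and whether numbers mark pairs cannot be decided from them. With the replicate block, 0 genes were called in each group, the share differences were 1.69, 0.52 and 1.76 percentage points, the early-gene differences 0.78, -0.37 and -0.049, and the differences between N7 and other neurons -0.55, -0.38 and 0.05, in seizure, immobilization and odor. The replicate block for shares and sums, the ratio of Fos to the naive floor without each library, N7 restricted to cells labelled as neurons, and other neurons without N9 and N12 were chosen after seeing the data. N7's few UMIs per library limit the fit to 691 genes and leave most peptide, receptor and immediate early genes untested one by one.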
